A study of Apis mellifera with 6 samples.

Results

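The genes described here are the honey bee homologs of the oxidative stress regulator CncC (LOC725081) and of its inhibitor Keap1 (LOC411679), as the study identifies them, together with the antioxidant and glutathione transferase genes that the deposited tables list under a symbol. They were chosen by identifier, as LOC725081, LOC411679, Cat, or any symbol that starts with Sod, Gst, Tpx, Gtpx, Trx or Msr followed by a digit, a hyphen or at most 2 letters. This gave 13 of the 10151 genes in the tables. The libraries were made from poly(A)-selected RNA of individual midguts of adult *Apis mellifera*, with 3 midguts from bees kept at 35 °C and 3 from bees kept at 45 °C, for 4 h in both groups per the labels. Bees of both groups were fed sucrose solution with 0.5% DMSO and, per the study's methods, came from the landing boards of outbred colonies. Per the labels, all 3 libraries at 35 °C were reused from an earlier series and those at 45 °C were not. The methods describe DMSO controls that were fed for longer, so it is unclear whether the reused libraries are from 4 h. Every difference given here is therefore also one between 2 series, and temperature, origin and any difference in time cannot be told apart.

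CncC is the insect counterpart of mammalian Nrf2, a transcription factor that binds antioxidant response elements together with a small Maf protein. Keap1 is the adaptor of a ubiquitin ligase that keeps the factor at a low level, and oxidants or electrophiles that modify Keap1 let the factor accumulate. This step acts on the protein, so transcript levels of either gene do not measure it. The enzymes fall into groups that work in sequence. Superoxide dismutases turn superoxide into hydrogen peroxide, catalase and the peroxidases remove the peroxide, thioredoxin reductase renews the thioredoxin that thioredoxin peroxidases and methionine sulfoxide reductases use, and glutathione S-transferases couple glutathione to reactive compounds. *Drosophila* has no glutathione reductase, and its thioredoxin system also keeps glutathione reduced. In the insect midgut these enzymes meet both food-borne toxins and oxidants made by the tissue itself.

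The values are normalized counts, for which the authors divided the reads on a gene by the library's DESeq2 size factor. The reads could be recovered from the values, and came to between 23305758 and 26921417 per library. Spearman's correlation over all genes was at least 0.973 between libraries of the same temperature and at most 0.927 between temperatures. Of the 13 genes, 12 had at least 480.3 normalized counts in every library, and the last, GstS4, had between 1.77 and 94.0. Together the 13 genes took 0.820 ± 0.0891% (SD, n = 3) of the reads at 35 °C and 0.763 ± 0.0510% (SD, n = 3) at 45 °C, and the groups overlapped. Neither coordinates nor sequences are shown, and levels are not compared between genes, since no transcript lengths were at hand. In bulk RNA, fewer cells of a type and less RNA per cell cannot be told apart.

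At 45 °C, MsrA, the methionine sulfoxide reductase, and Trxr-1, the thioredoxin reductase, were more than 2-fold higher than at 35 °C. CncC was higher by a smaller factor. None of the remaining 10 genes, among them Keap1, both superoxide dismutases, catalase, the 3 peroxidases and the 3 glutathione S-transferases, passed the test. The study's threshold asks for a log2 fold change beyond 1 in either direction and an adjusted p below 0.05, here from limma on log2(value + 1) over all 10151 genes. By it, 2 of 13 genes were higher. That is 15.4% of them, beside 13.1% of all genes tested. With the adjusted p alone, 3 of 13 (23.1%) were higher, beside 21.1% of all genes. Both shares were close to those of all genes. Under the threshold 0 of 13 were lower, beside 4.94% of all genes, and under the adjusted p alone 0 of 13, beside 18.2%. At an unadjusted p below 0.05, limma gave 4 of 13 as higher, beside 25.2% of all genes, and 0 as lower, beside 23.6%. DESeq2 and edgeR with relative log expression or TMM factors also gave 0 as lower at that p. Library size alone, quantile normalization and totals without the 20 highest genes gave some as lower. The share of all genes at that p was not computed for these scalings. Their calls on the adjusted p are given below beside that share. Without a test, 5 of 13 genes (38.5%) had each 45 °C library above each 35 °C library, beside 26.8% of all genes, and 1 of 13 (7.69%) had each below, beside 26.4%. The median log2 fold change was 0.29 over the 13 genes and -0.0065 over all genes.

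**Figure D1:**
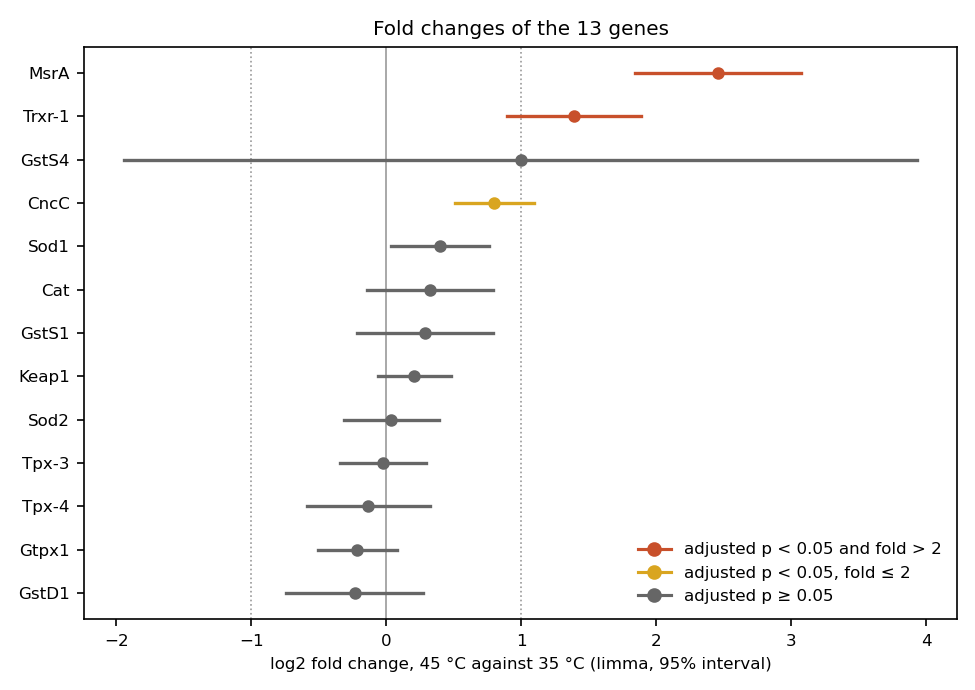
Log2 fold change of each of the 13 genes at 45 °C against 35 °C from limma (points) with its 95% interval (lines), 3 libraries a group; dotted lines mark a log2 fold change of 1 in either direction. MsrA and Trxr-1 are past the threshold, CncC passes the adjusted p alone, and 9 of the other 10 genes have intervals that lie between the dotted lines.

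Both genes of the regulatory pair had more normalized counts in each library at 45 °C than in any at 35 °C, but the change of Keap1 did not pass the test. The normalized counts of CncC were 4423, 4432 and 4816 in replicates 1, 2 and 3 at 35 °C, and 8305, 8534 and 7019 in those at 45 °C. The 35 °C libraries lay close together, and the gap to the lowest 45 °C library was wider than the range within either group. The log2 fold change of CncC was 0.80 (standard error 0.13, 95% interval 0.51 to 1.09, adjusted p = 0.00275 from limma), a 1.74-fold difference. Leaving out any 1 library kept it between 0.75 and 0.89, with adjusted p between 0.00517 and 0.0145 from limma. For Keap1 the values were 725, 805 and 785 normalized counts at 35 °C and 909, 930.3 and 835 at 45 °C. Its groups were also apart, with the lowest 45 °C library just above the highest 35 °C library. The log2 fold change was 0.21 (standard error 0.12, 95% interval -0.061 to 0.48, adjusted p = 0.191 from limma).

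Reads are summed over each gene. RefSeq lists 6 transcripts for LOC725081 in the later assembly Amel_HAv3.1, and the *Drosophila* locus makes several proteins of which CncC is the longest, so the counts do not single out the transcript that encodes CncC. In the same assembly the span of LOC725081 overlaps that of vas, the germline helicase gene. The level of vas was 175 ± 10.3 normalized counts at 35 °C against 388.5 ± 36.7 at 45 °C (SD, n = 3 each), which is 3.85% and 4.89% of the values of CncC. How reads in the shared span were divided between the pair was not tested. Keap1 overlaps no listed gene and has 1 transcript there.

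**Figure D2:**
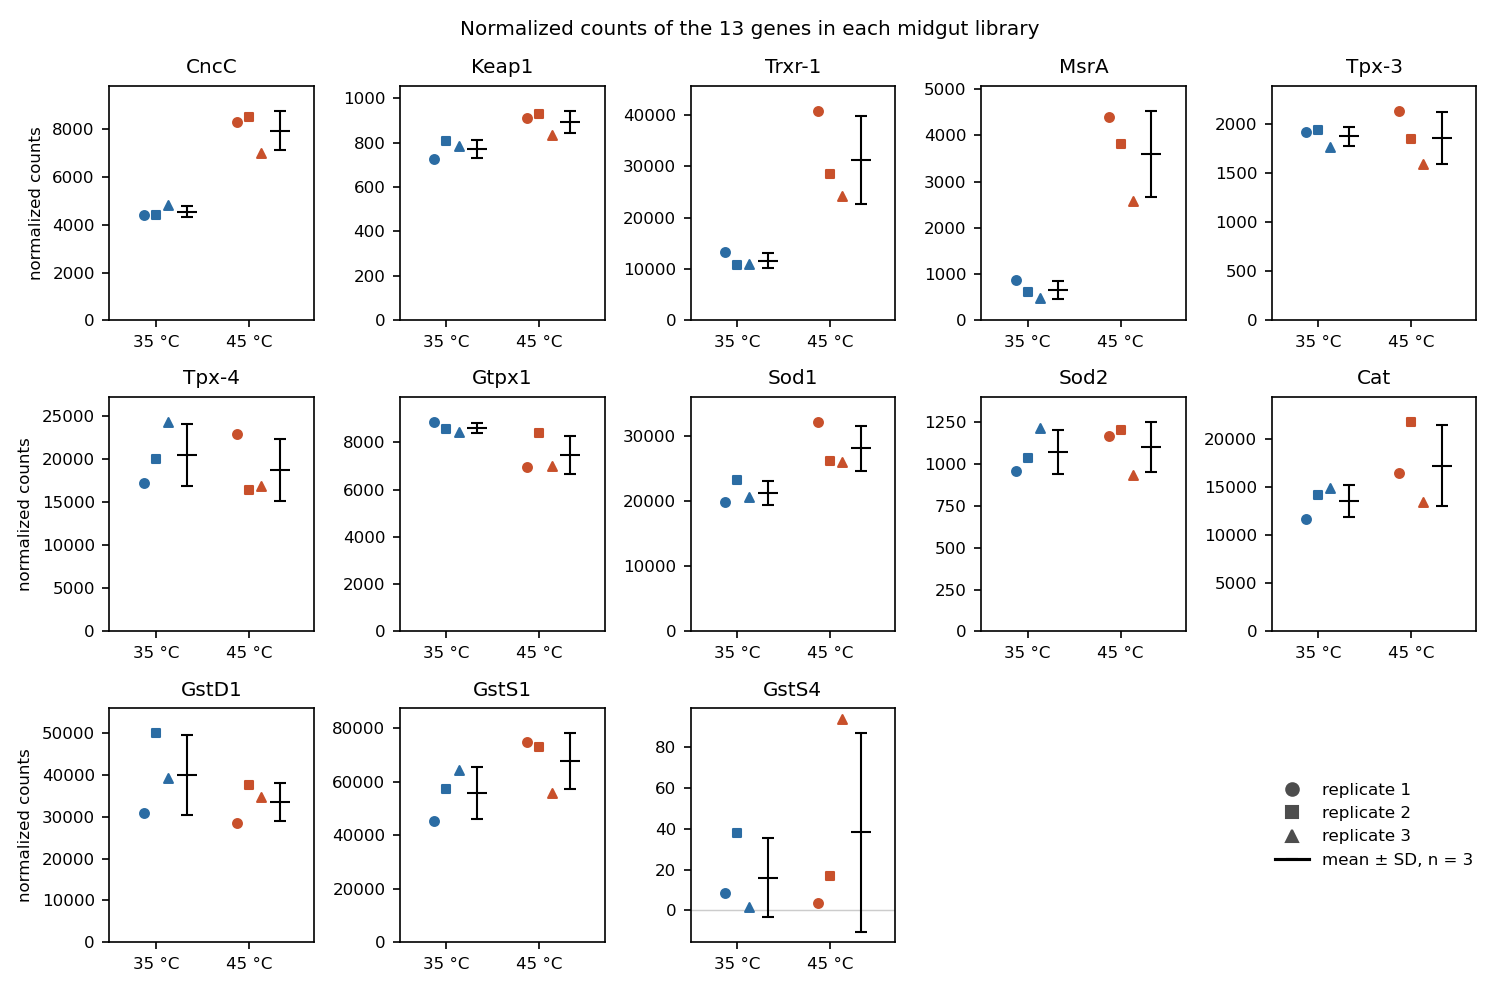
Normalized counts (vertical axes, each starting at 0 except that of GstS4, which runs below 0 to show the error bar) of the 13 genes in each midgut library at 35 °C (blue) and 45 °C (orange); symbols mark the replicate number of the labels and black bars the mean ± SD of 3 libraries. In the panels of CncC, Keap1, Trxr-1, MsrA and Sod1 each orange point lies above each blue point, and in that of Gtpx1 each orange point lies below.

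Of the thioredoxin system, the reductase and 1 enzyme that draws on it were higher at 45 °C. Trxr-1, which passes electrons from NADPH to thioredoxin, had 13283, 10694 and 10934 normalized counts at 35 °C and 40679, 28428 and 24264 at 45 °C. The lowest 45 °C library was well above the highest 35 °C library, and replicate 1 was the highest in each group. The log2 fold change of Trxr-1 was 1.39 (standard error 0.21, 95% interval 0.89 to 1.89, adjusted p = 0.00249 from limma), and 90.3% of all genes had a lower one. The lower end of its interval lies under the threshold of 1. Without each library in turn it ranged from 1.18 to 1.55.

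MsrA, which repairs oxidized methionine in proteins, showed the largest change of the 13 genes under every setting tried. It had 870.03, 624 and 480.3 normalized counts at 35 °C and 4399.9, 3805 and 2586 at 45 °C. The groups were far apart, and in each of them replicate 1 was the highest and replicate 3 the lowest. Its mean rose from 658 ± 197 to 3597 ± 925 (SD, n = 3 each). The log2 fold change was 2.46 (standard error 0.26, 95% interval 1.84 to 3.07, adjusted p = 5.82e-04 from limma), a 5.49-fold difference, and MsrA ranked 340 of all 10151 genes. Leaving out 1 library gave values between 2.25 and 2.68. MsrA overlaps no listed gene in Amel_HAv3.1. Trxr-1 overlaps LOC724327, which had 2.00% of its normalized counts at 45 °C and 4.80% at 35 °C.

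The peroxidases that take electrons from thioredoxin did not pass the test. Tpx-3 and Tpx-4 are thioredoxin peroxidases (peroxiredoxins). The normalized counts of Tpx-3 lay between 1769 and 1948 at 35 °C and between 1599 and 2136 at 45 °C, with a log2 fold change of -0.023 (95% interval -0.34 to 0.29, adjusted p = 0.910 from limma). Tpx-4 ranged from 17170.2 to 24275 and from 16414 to 22865, with a log2 fold change of -0.13 (95% interval -0.59 to 0.32, adjusted p = 0.622 from limma). In both genes the 45 °C libraries overlapped those at 35 °C. The span of Tpx-4 overlaps LOC102656448, which had 2.28% of its normalized counts at 45 °C. Gtpx1 is a glutathione peroxidase homolog whose *Drosophila* counterpart works with thioredoxin. It had 8856, 8575 and 8426 normalized counts at 35 °C and 6964, 8388 and 7005 at 45 °C. Each 45 °C library was below each 35 °C library, although replicate 2 at 45 °C nearly reached the lowest at 35 °C. The log2 fold change of Gtpx1 was -0.21 (95% interval -0.51 to 0.078, adjusted p = 0.212 from limma). Its span overlaps that of LOC411982, at 170.2 ± 49.9 normalized counts in the 35 °C group and 1604 ± 223 in the 45 °C group (SD, n = 3 each). The log2 fold change of LOC411982 was 3.26 (adjusted p = 7.84e-05 from limma). LOC411982 thus had 21.5% of the value of Gtpx1 at 45 °C and 1.97% at 35 °C. The sources used here do not say how such reads were counted, so the 45 °C value of Gtpx1 is uncertain.

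The enzymes that remove superoxide and hydrogen peroxide without thiols gave small differences. Sod1, the cytosolic copper and zinc enzyme, had 19822, 23277 and 20638 normalized counts at 35 °C and 32149.8, 26166.5 and 25994 at 45 °C. All 45 °C libraries were above the 35 °C libraries. The log2 fold change of Sod1 was 0.40 (standard error 0.16, 95% interval 0.036 to 0.76, adjusted p = 0.0779 from limma), which missed the test over all genes. DESeq2 on the recovered reads gave an adjusted p of 0.0311 for Sod1, whose log2 fold change was still below 1. With library size alone that log2 fold change was 0.013 (adjusted p = 0.951 from edgeR). It was 0.020 after quantile normalization and 0.13 with totals without the 20 highest genes (adjusted p = 0.915 and 0.494 from limma). Relative to the total reads on listed genes, the Sod1 groups overlapped. Sod2, the mitochondrial manganese enzyme, lay between 962 and 1216 normalized counts at 35 °C and between 933 and 1206 at 45 °C. These ranges nearly coincided, and its log2 fold change was 0.038 (95% interval -0.31 to 0.39, adjusted p = 0.864 from limma). Cat, the single catalase listed by symbol, ranged from 11716 to 14899.6 and from 13512 to 21783 normalized counts, with a log2 fold change of 0.32 (95% interval -0.15 to 0.79, adjusted p = 0.239 from limma). Replicate 3 at 45 °C lay inside the 35 °C range of Cat, and replicate 2 was the highest.

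Among the glutathione S-transferases, GstD1 belongs to the delta class, known in insects for the detoxification of insecticides, and GstS1 and GstS4 to the sigma class, whose *Drosophila* member acts on products of lipid peroxidation. At 35 °C the normalized counts of GstD1 lay between 30911 and 49891, and at 45 °C between 28546 and 37441, with a log2 fold change of -0.23 (95% interval -0.74 to 0.27, adjusted p = 0.428 from limma). GstS1 ranged from 45313 to 64593 and from 55902 to 74733, with a log2 fold change of 0.29 (95% interval -0.22 to 0.79, adjusted p = 0.326 from limma). Both genes overlapped between the temperatures. GstS4 was listed at low and uneven values, with 9, 45 and 2 recovered reads in replicates 1, 2 and 3 at 35 °C and 3, 15 and 94 in their 45 °C counterparts by number. The 45 °C values of GstS4 overlapped those at 35 °C. Its log2 fold change of 1.00 had a 95% interval from -1.94 to 3.93 (adjusted p = 0.561 from limma) and turned to -0.13 without 45 °C replicate 3. With reads this few and this uneven no difference in GstS4 was detectable, and 99.5% of all genes had a lower spread within groups. Whether depth or differences between bees set this limit was not tested.

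For the 9 other genes that did not pass the adjusted p, the data set limits on the size of a difference. Their log2 fold changes lay between -0.23 and 0.40, and the 95% intervals between -0.74 and 0.79, which is a 0.598-fold to a 1.73-fold level under this scaling. Among all genes, 37.4% had a lower log2 fold change than GstD1 and 68.5% a lower one than Sod1, so these 9 genes sat in the middle of the distribution.

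**Figure D3:**
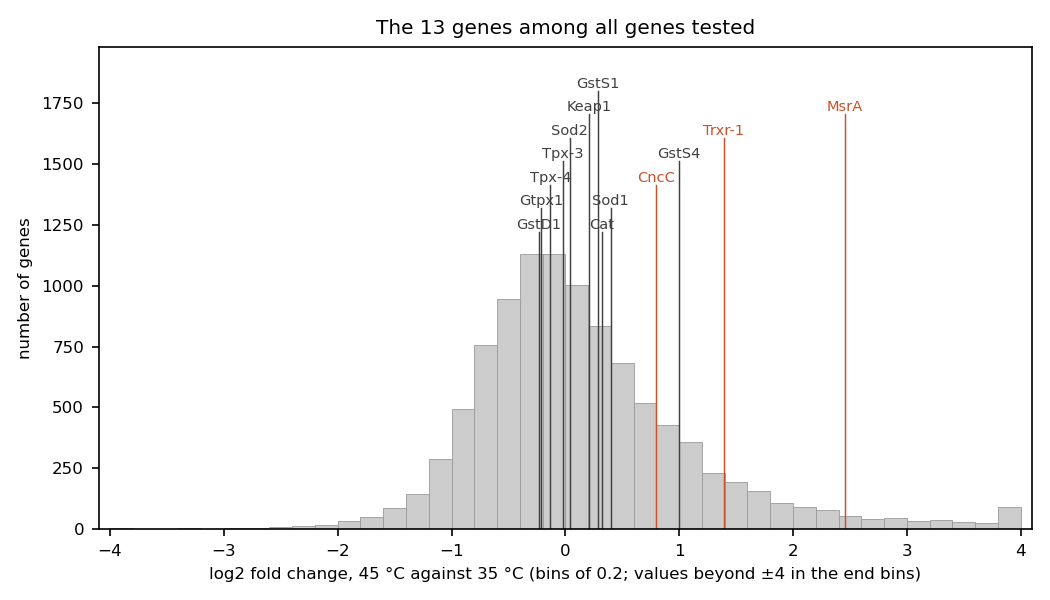
Number of genes (vertical axis) by log2 fold change at 45 °C against 35 °C (horizontal axis) for all 10151 genes (grey bars), with a line at the value of each of the 13 genes; heights of the lines only separate the names. MsrA at 2.46, Trxr-1 at 1.39 and CncC at 0.80, in orange, passed the adjusted p, and most other lines stand near the centre of the bars.

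The direction of the small differences depended on how libraries were scaled. The DESeq2 factors differed between the groups, from 1.07 to 1.18 at 35 °C and from 0.812 to 0.99966 at 45 °C, although total reads were similar. Reads were therefore also given as RPM, that is, relative to the total reads on listed genes with no size factor. In RPM, MsrA had 21.9 to 40.03 at 35 °C and 96.0 to 141 at 45 °C, Trxr-1 had 481 to 611 and 901 to 1301, and CncC had 199 to 219.9 and 261 to 304. These 3 genes were higher in each 45 °C library on this scale too, and no other of the 13 genes was. Instead, 6 genes were lower in each 45 °C library, namely Keap1, Gtpx1, Tpx-3, Tpx-4, Sod2 and GstD1. The 6 of 13 (46.2%) stand beside 44.1% of all genes that were lower in this way, and the 3 of 13 (23.1%) beside 15.7% that were higher. GstD1 had 1422 to 2244 RPM at 35 °C and 913 to 1335 at 45 °C. Scaled by library size alone, in edgeR, all genes together had a median log2 fold change of -0.39. That fit gave 2.05 for MsrA, 1.01 for Trxr-1 and 0.42 for CncC, each with an adjusted p below 0.05, and called 4 of the 13 genes lower on the adjusted p alone (GstD1, Gtpx1, Tpx-3 and Tpx-4). These 30.8% stand beside 36.9% of all genes in that fit. Quantile normalization called 2 of 13 lower (GstD1 and Gtpx1, 15.4%), beside 23.9% of all genes, and totals without the 20 highest genes 1 of 13 (Gtpx1, 7.69%), beside 31.4%. Relative to the median of all genes with library size alone, the log2 fold change of CncC was 0.81 and that of GstD1 -0.23, as under the DESeq2 factors. Quantile normalization did more than shift all genes alike. Relative to its median, CncC was at 0.71 and GstD1 at -0.63, and GstS1 went from 0.29 under the DESeq2 factors to -0.19.

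**Figure D4:**
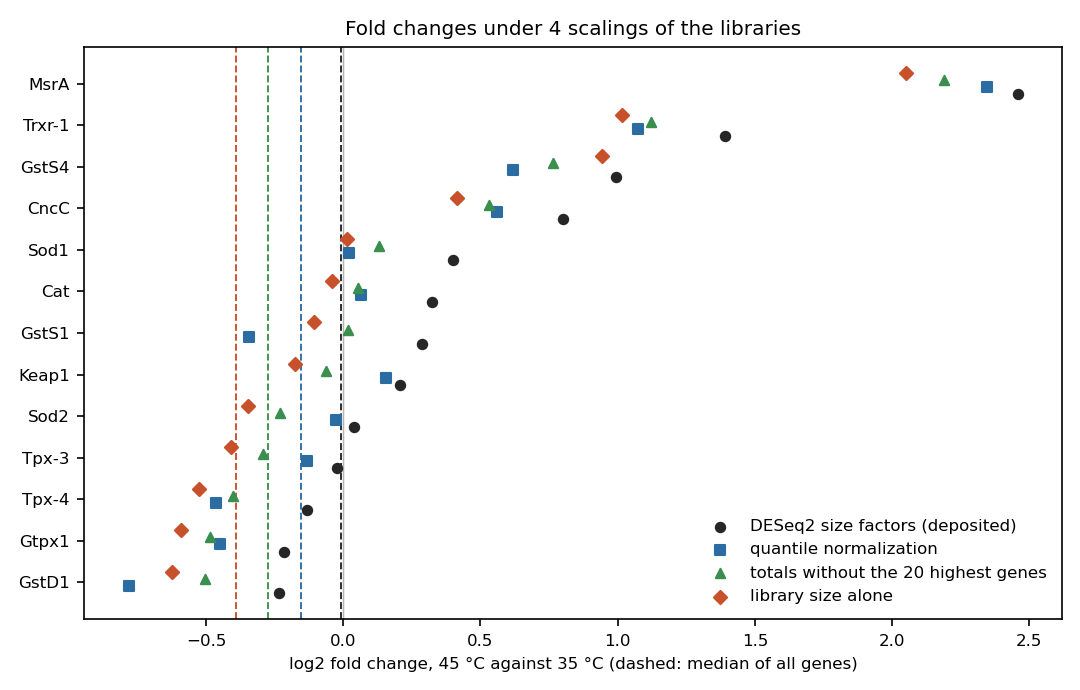
Log2 fold change (horizontal axis) of the 13 genes at 45 °C against 35 °C under 4 scalings of the libraries (symbols), with the median of all genes under each scaling as a dashed line of the same color. MsrA and Trxr-1 stay above 1 under all 4, CncC stays above 0.41, and Keap1, Sod2, Cat and GstS1 fall on either side of 0 depending on the scaling.

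Ratios of reads between a pair of genes within a library do not depend on any scaling. They also carry the unequal lengths of the transcripts, so only their change between libraries is read here. For 8 such ratios between genes that act in sequence or in parallel, the smallest p that an exact two-sided permutation test of 3 against 3 libraries can give is 0.1. After adjustment over the 8 ratios none was below 0.16. The ratios use the same reads as the fold changes above. Several pairs set a called gene against an uncalled one, so the ratios give no separate support for those changes. The ratio of CncC to Keap1 reads was 6.10, 5.51 and 6.14 in the libraries at 35 °C and 9.14, 9.17 and 8.40 at 45 °C, a 1.51-fold change with groups apart (exact permutation p = 0.1). For MsrA against Trxr-1, the ratio was 0.0655, 0.0583 and 0.0439 at 35 °C and 0.108, 0.134 and 0.107 at 45 °C, a 2.10-fold change with groups apart (exact permutation p = 0.1). The ratios of the reductase to Tpx-3 and to Tpx-4 were also apart between the groups (exact permutation p = 0.1 for each). Its ratio to Gtpx1 was not taken. Trxr-1 against Tpx-3 went from between 5.49 and 6.91 to between 15.2 and 19.0, and against Tpx-4 from between 0.450 and 0.774 to between 1.44 and 1.78. The ratio of Cat to Gtpx1 was also apart, with a 1.45-fold change, subject to the overlap of Gtpx1 given above. Sod1 against Sod2 (1.28-fold), Sod1 against Cat (1.05-fold) and GstS1 against GstD1 (1.43-fold) overlapped between the temperatures.

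**Figure D5:**
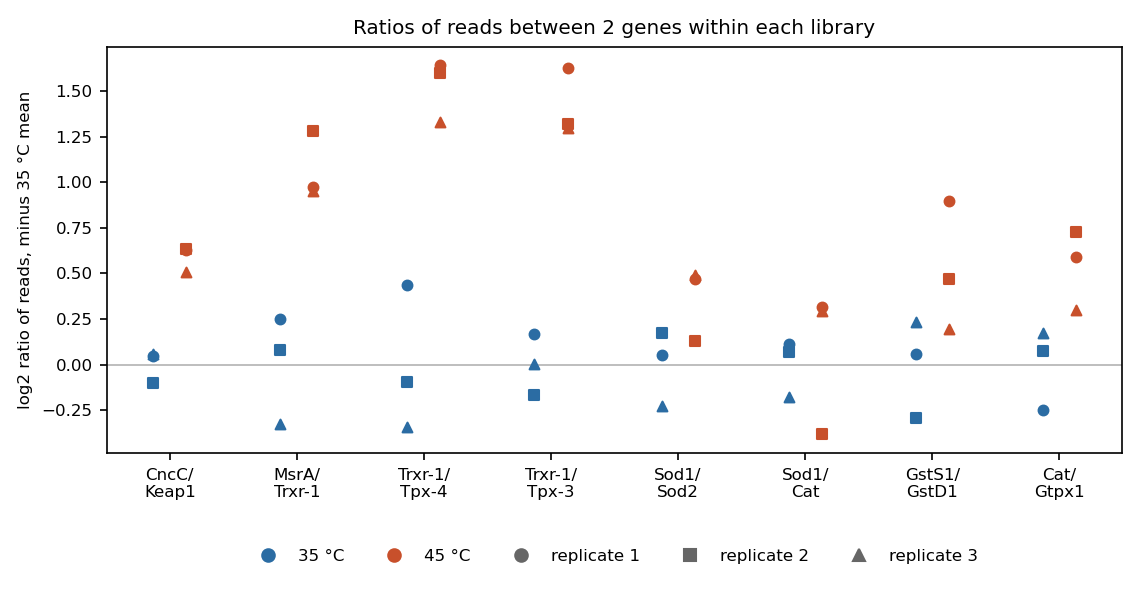
Log2 ratio of recovered reads between 2 genes within each library, set to 0 at the mean of the 35 °C libraries (vertical axis), for 8 pairs of genes (horizontal axis); blue, 35 °C; orange, 45 °C; symbols, replicate number. For CncC/Keap1, MsrA/Trxr-1, Trxr-1/Tpx-4, Trxr-1/Tpx-3 and Cat/Gtpx1 all orange points lie above all blue points.

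The members also differed in how even their normalized counts were among the 3 bees of 1 temperature. Keap1, Gtpx1 and CncC were among the most even, with a pooled SD within groups of 0.080, 0.11 and 0.12 on the log2 scale, lower than in all but 3.82%, 9.93% and 11.9% of genes. The median SD of all genes was 0.25. These ranks were taken over genes of every level, with no matching for level. MsrA, with 0.41, was the most uneven of the genes with a difference. Replicate 1 had the lowest value of the 35 °C libraries for 8 of the 13 genes, and replicate 3 that of the 45 °C libraries for 9 of 13. The shares of all genes with these orders were not computed, so the orders cannot be called particular to the 13. The exceptions at 35 °C included MsrA, Trxr-1 and Gtpx1, for which replicate 1 was the highest.

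Of other genes with known roles in redox balance, heme or iron, 5 are listed by symbol, and 0 of 5 were past the threshold with limma, in either direction. At an unadjusted p below 0.05, 2 of them were higher and 0 lower, beside the 25.2% and 23.6% of all genes given above. Glob1, an intracellular globin, averaged 2135 ± 659 normalized counts (SD, n = 3) in the 35 °C group and 3694 ± 857 (SD, n = 3) in the 45 °C group. The globin gene had a log2 fold change of 0.82 (adjusted p = 0.0415 from limma), and it passed the threshold without 35 °C replicate 3, with 1.01. Leaving out any other library lost even the adjusted p of Glob1 (0.0640 to 0.121), as did library size alone (0.227), quantile normalization (0.0988), totals without the 20 highest genes (0.105) and limma without trend (0.0723). Cbs, the first enzyme from homocysteine towards cysteine and so towards glutathione, had 0.47 (adjusted p = 0.0665 from limma). The heme oxygenase gene Ho was at -0.23, the transferrin gene Tsf1 at 0.43 and the nitric oxide synthase gene NOS at -0.19, with adjusted p between 0.220 and 0.597 from limma. These 5 were chosen by symbol after the tables had been seen.

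Markers of tissues that a dissected midgut could carry along were detected and some moved with temperature. Of the 5 fat body genes, all of them listed, Vg and Hex110 were higher at 45 °C past the threshold, while HEX70b was lower on the adjusted p alone (log2 fold change -0.91, adjusted p = 0.0297 from limma) and Hex70a and Hex70c were at 0.18 and 0.0035. The summed level of all 5 lay between 643 and 834 normalized counts at 35 °C and between 923 and 1405 at 45 °C. Of 4 muscle troponin genes, TpnCIIIa and TpnCIIIb were lower past the threshold. TpnT and TpnI had log2 fold changes of 0.43 and 0.16 (adjusted p = 0.192 and 0.659 from limma). The sums of the 4 overlapped (2464 to 4483 and 3241 to 3858). Of 9 royal jelly protein genes, made in the head glands, 3 were listed and were not past the threshold in either direction, with sums from 1426 to 2712 and from 1293 to 2199. Of 4 neuronal genes, brp and Syt1 were listed and had sums from 159 to 266 and from 296 to 316, and PPO, the 1 listed of 2 hemocyte genes, ran from 54.2 to 65.3 and from 97.3 to 111. On the adjusted p alone brp and PPO were also higher (adjusted p = 0.0483 and 0.0175 from limma). None of the listed markers was at 0 in any library. Their part in the differences of CncC, Trxr-1 and MsrA was not tested. The tables give no product names, so markers of the midgut itself, which were fixed by product name, could not be looked up and the tissue label was not checked against them.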

How the data were processed

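The authors trimmed reads (Trimmomatic 0.36), aligned them to a honey bee genome and counted them per gene. The submitters' processing notes also list STAR, Subread and DESeq2. The sources used here name no strand setting or annotation release. The deposited signal values are counts per gene that the authors divided by DESeq2 size factors, in 3 tables with a 35 °C and a 45 °C library each. Multiplied by the size factor, 100% of values came within 0.01 of a whole read, which gave back the reads. Size factors computed again from the 6 libraries had the same values.

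As values were normalized, limma 3.58.1 under R 4.3.3, with trended empirical Bayes and no block, was run on log2(value + 1), which shrinks fold changes of low genes. All 10151 genes passed a minimum mean of 1, with Benjamini-Hochberg adjustment over all. DESeq2 1.42.0 and edgeR 4.0.16 on the recovered reads, and the other alternatives under the closing section, were also run. The tests recovered the changed genes in simulated reads, where equal numbers of genes were raised and lowered by the same large factor. That simulation held no small changes and no shift of most genes to the same side. It therefore does not show how well the tests handle either. Libraries of 1 temperature differed by more than sampling noise (chi-square per gene at least 44.4) and each counted as 1 replicate. Each is 1 bee, and the methods take the bees of an experiment from 1 colony, so p-values measure the spread between these bees.

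All 13 genes are named. The members, the lists and the pairs of genes for ratios were chosen with earlier results of these data known. Pathway lists planned by product name could not be applied, as no product names were at hand, and were replaced by 5 symbols. The marker lists for cuticle matched no listed gene. Gene overlaps come from the RefSeq table of assembly Amel_HAv3.1, which held all 13 genes and is not the build of the counts.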

Additional observations from a re-analysis of the deposited data

How the results depend on the processing

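Under each of the 20 other settings of filter, pseudocount, scaling, tool, block and libraries left out, MsrA and Trxr-1 stayed past the threshold as higher genes, CncC kept an adjusted p below 0.05, and 0 of the 13 genes were past the threshold as lower. No filter and a mean of at least 5 removed no gene, and any symbol with one of the prefixes gave the same 13, so these say nothing about stability. The fit with no minimum fold change was the main fit too, so its values and adjusted p were the same by construction. A mean of at least 100 removed GstS4. On the adjusted p alone, 4 of 13 genes were lower with library size alone, 2 after quantile normalization and 1 with totals without the 20 highest genes, against 0. Of all genes, 36.9%, 23.9% and 31.4% were lower by the same rule, against 18.2%. Under these scalings, all genes together had medians of -0.39, -0.15 and -0.27 (log2). They also turned the sign of some uncalled values: with library size alone Cat was at -0.041, Keap1 at -0.18, Sod2 at -0.35 and GstS1 at -0.11, after quantile normalization Sod2 was at -0.028 and GstS1 at -0.34, and with totals without the 20 highest genes Keap1 was at -0.061 and Sod2 at -0.23.

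With 1 library left out, log2 fold changes ranged from -0.036 to 0.15 for Sod2, -0.13 to 0.081 for Tpx-3, -0.13 to 2.04 for GstS4 and -0.093 to 0.71 for Tsf1. Of all single gene values, 340 kept side and sign, 3 gained the call and 15 changed sign, none of them called. The 340 include values from the settings that repeat the main fit, which were kept by construction. CncC and Glob1 gained the call with no minimum fold change, by construction, and Glob1 also without 35 °C replicate 3. Side here means past the threshold or not. An adjusted p lost or gained below the fold threshold, as for Glob1 and Gtpx1, thus counts as kept. All genes past the threshold, 1327 higher and 501 lower, became 838 and 1625 with library size alone (34.0% higher, against 72.6%), 1080 and 804 after quantile normalization (57.3%), 941 and 1195 with totals without the 20 highest genes (44.1%), 872 and 359 with a mean of at least 100, and 2143 and 1844 with no minimum fold change, by construction. Leaving out 1 library gave 1177 to 1309 and 382 to 545, and 0 to 1 of the 5 other redox genes, of which 1 was also called with no minimum fold change. The cause of the other shifts was not tested. Same-numbered libraries deviated together little if at all (correlations 0.154, 0.0164 and 0.00538), beside -0.112 to 0.115 for libraries of different numbers. Such correlations cannot tell whether the numbers pair the libraries. With the replicate block 1348 genes were higher and 524 lower, and 2 of the 13 stayed higher and 0 lower. The adjusted p of CncC was 0.00678 with this block. Of the 13 genes only GstS4 had few reads, with 2 to 94 per library, and these also varied widely within groups.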
